A study of Mus musculus with 45 samples.

Results

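The genes described here are 36 genes of the liver's extracellular matrix and of hepatic stellate cells, found by symbol among the 23227 genes of the deposited count tables. They comprise 5 fibrillar collagens, 8 network and other collagens, 3 cross-linking enzymes, 5 proteases and protease inhibitors, 6 proteoglycan, matricellular or elastic fibre genes, 6 genes of stellate and other mesenchymal cells, and a last group of 3 with the contractile genes Acta2 and Tagln and the growth factor Tgfb1. All 36 were present and all 36 passed the filter on low counts. The rule that selects them uses their symbols and no measured value, but the 36 were chosen with earlier results of these data known. Their counts beside the share of all genes are therefore descriptive.

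Polyadenylated RNA was sequenced from livers of wild type C57BL/6J mice on chow or on a high-fat diet (HFD) for 6 or 16 weeks. All mice were 24 weeks old and had been fasted overnight, and those on the longer HFD had started it at age 8 weeks and those on the shorter one at age 18 weeks. The basal groups received neither insulin nor metformin. On chow and on 16-week HFD, other mice received 1 U/kg of insulin by intraperitoneal injection and were sampled 15, 30, 60 or 120 min later, whereas the 6-week diet had no insulin groups. On each of the diets a further group drank metformin, a biguanide that lowers blood glucose, at 270 mg/kg of lean body mass per day, begun at age 8 or 18 weeks, and the labels do not say which start applied to the chow group. This gave 14 groups of 3 libraries each, except 16-week HFD at 30 min after insulin, which had 6. The design text gives at least 3 mice per group but the labels tie no library to an animal, so that the p-values measure the spread between these libraries. The labels name no other genotype, agent or liver injury in any group.

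Hepatic stellate cells lie between hepatocytes and the sinusoidal endothelium, store retinyl esters and carry PDGF receptors. In injured liver they become myofibroblast-like under TGF-beta and PDGF and deposit fibrillar collagen, which lysyl oxidases cross-link, metalloproteinases degrade and TIMP proteins protect from degradation. Network-forming collagens, proteoglycans and elastic fibre proteins make up the rest of the matrix, and sinusoidal endothelium and portal fibroblasts contribute to it. In bulk liver RNA, a change in the number of cells of a type and a change in RNA per cell cannot be told apart.

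The 250 bases before the annotated start are printed below for genes that represent the range of the measured responses. RefSeq windows (table build GRCm38.p6) matched 24 of the 36 genes by symbol. Col1a2, Col3a1 and Timp1 are shown because they were among the genes with higher levels on 16-week HFD, and Acta2 because the standard marker of activated stellate cells did not pass the test there. The windows are chr6:4505368-4505617 on the plus strand for Col1a2, chr1:45311288-45311537 on the plus strand for Col3a1, chrX:20869916-20870165 on the plus strand for Timp1 and chr19:34255374-34255623 on the minus strand for Acta2, each written 5′ to 3′. Capitals mark TATAAA on the printed strand and CCAAT and GGGCGG on either strand (ATTGG and CCGCCC are their reverse complements), with no overlap between motifs.
Col1a2: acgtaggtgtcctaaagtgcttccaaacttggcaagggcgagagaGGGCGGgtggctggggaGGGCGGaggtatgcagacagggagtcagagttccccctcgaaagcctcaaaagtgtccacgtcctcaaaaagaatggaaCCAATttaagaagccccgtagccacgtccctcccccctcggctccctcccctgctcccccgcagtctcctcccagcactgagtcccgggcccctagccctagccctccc
Col3a1: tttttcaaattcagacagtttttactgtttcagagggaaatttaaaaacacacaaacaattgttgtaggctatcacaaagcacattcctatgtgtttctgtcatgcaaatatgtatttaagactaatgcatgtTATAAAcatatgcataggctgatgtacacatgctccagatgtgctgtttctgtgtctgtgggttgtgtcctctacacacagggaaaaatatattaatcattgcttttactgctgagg
Timp1: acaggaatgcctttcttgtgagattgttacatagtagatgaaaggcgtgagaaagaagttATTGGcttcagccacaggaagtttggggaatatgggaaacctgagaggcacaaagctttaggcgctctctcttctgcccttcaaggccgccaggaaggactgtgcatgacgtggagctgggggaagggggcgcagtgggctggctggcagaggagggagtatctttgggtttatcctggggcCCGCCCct
Acta2: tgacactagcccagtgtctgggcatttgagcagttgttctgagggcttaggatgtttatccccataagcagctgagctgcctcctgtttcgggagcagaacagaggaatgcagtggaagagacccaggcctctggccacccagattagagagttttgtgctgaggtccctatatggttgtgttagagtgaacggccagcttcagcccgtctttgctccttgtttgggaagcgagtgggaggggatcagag
Col1a2 held CCAAT and 2 copies of GGGCGG, Timp1 held 1 copy of each on the opposite strand, Col3a1 held only TATAAA, and Acta2 held none of these in this window. The first window listed for each gene was used, and other starts were not searched. Across these 27025 windows, TATAAA on the given strand occurred in 8.12%, CCAAT on either strand in 34.5% and GGGCGG on either strand in 32.9%. Among the 24 matched genes, TATAAA occurred in 2 (8.33%, Col3a1 and Vim), CCAAT in 9 (37.5%) and GGGCGG in 15 (62.5%). The CArG box, the element bound by serum response factor, was searched on both strands only in its strict form CCWWWWWWGG (W for A or T). That form was found in 1.4% of all windows and in 0 of the 24. Near matches were not counted. The printed Acta2 window holds ccctatatgg and ccttgtttgg, which differ from the strict form only within the W bases.

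Several of these genes are neighbours in the genome. Col4a1 and Col4a2 encode the alpha chains that assemble into the main type IV collagen of basement membranes and are transcribed away from each other from 1 shared region. In the mm9 gene models of the study, Col4a1 spans chr8:11198423-11312826 on the minus strand and Col4a2 spans chr8:11312829-11449287 on the plus strand. The RefSeq starts on GRCm38.p6 overlap by 22 bases, shown in capitals within chr8:11312801-11312830 (plus strand), because the first bases of both transcripts, on opposite strands, lie there.
Col4a1 and Col4a2 starts: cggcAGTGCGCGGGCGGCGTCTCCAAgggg
Dcn and Lum, encoding the small leucine-rich proteoglycans decorin and lumican, lie 47339 bases apart on mm9. Col3a1 and Col5a2 lie 24625 bases apart, and Col6a1 and Col6a2 lie 85388 bases apart. Timp1 lies within Syn1 on the opposite strand, and the library kit does not mark strand, so reads of Timp1 and of its host gene are separated only by the exons to which they map. Tagln shares 95 exon bases with Pcsk7 on the opposite strand, and reads within those bases cannot be assigned to 1 of these genes by exon.

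The 45 libraries held 18193181 to 50253493 counted reads. Of 22 stellate cell markers, all were detected in at least 1 library, with chow medians of 57.7 CPM (counts scaled by library size) for Reln, 29 for Colec11, 14.2 for Lrat, 5.99 for Hand2, 2.61 for Lhx2 and 0.412 for Gfap. Their summed level ranged over 331–464 CPM on chow, 298–477 on 6-week HFD and 284–549 on 16-week HFD, and 6 of the 22 are among the 36 genes. Of these 6, Dcn alone had a chow median of 188 CPM, so that the sum is not separate from the 36. Markers of hepatocytes summed to medians of 89200 CPM on chow and 79800 CPM on 16-week HFD, so that stellate cell transcripts were a small part of each library. Skeletal muscle markers exceeded a summed 100 CPM in 5 libraries, with the highest value of 1600 CPM in 6-week HFD basal replicate 1. No marker in the tables was at 0 in every library for any of the cell types listed. The 6 libraries of 16-week HFD at 30 min after insulin fell into 2 sets, replicates 1 to 3 and replicates 4 to 6. The chi-square distance per gene between libraries was 19 to 54.9 within these sets and 69.6 to 114 between them, and the correlation across genes of a library's deviation with GC content was 0.19 to 0.22 in the first set and -0.22 to -0.13 in the second.

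To compare genes with each other, CPM were divided by exon length in kilobases. On this scale Col18a1, whose C-terminal fragment is endostatin, was highest on every diet, with a median of 138 CPM per kb on chow, 164 on 6-week HFD and 175 on 16-week HFD. Dcn followed at 90.2 on chow, and Bgn, encoding biglycan, at 36.3. The fibrillar collagens were far lower on chow, with 2.17 for Col3a1, 1.56 for Col1a2 and 0.513 for Col1a1. Timp1 at 0.0785 and Lox at 0.112 CPM per kb were the lowest of the 36 on chow. On 16-week HFD, Col3a1 moved from rank 19 to rank 11 of the 36 and Col1a1 from rank 31 to rank 22 by this median.

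**Figure D1:**
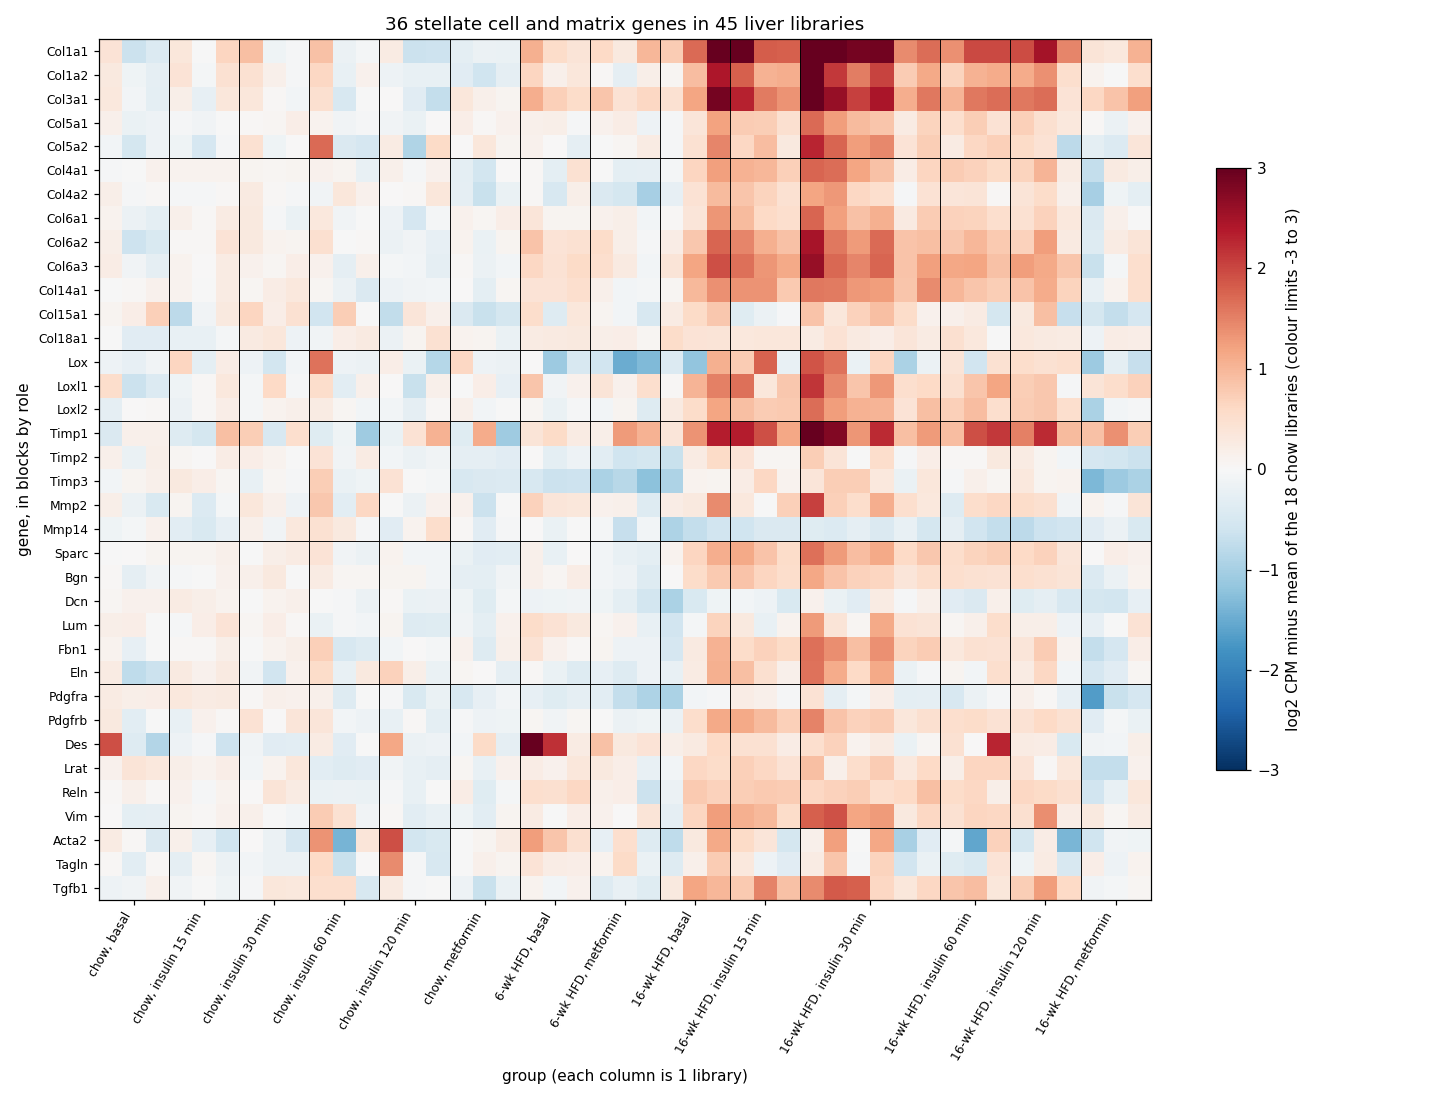
Level of each of the 36 genes (rows, ordered by role) in each of the 45 libraries (columns, ordered by group), as log2 CPM minus the gene's mean over the 18 chow libraries, with the colour scale held between -3 and 3. Of the 18 libraries of 16-week HFD without metformin, 17 exceed all 15 such chow libraries for Col1a1, 14 for Timp1 and 2 for Col5a2, and 10 lie below all of them for Mmp14. In basal replicate 1 of 16-week HFD the median of the 36 genes differs from basal chow by -0.01 (log2).

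In livers of mice on 16-week HFD, most collagens, the cross-linking enzyme Loxl2, Sparc, Timp1 and Tgfb1 rose against chow, whereas Mmp14 and Dcn fell. The diet was compared within 6 settings, basal, each of the 4 insulin times, and metformin, each with chow and 16-week HFD libraries of its own, and as the mean of the 6 settings. A gene was called at an adjusted p under 0.05 in the edgeR quasi-likelihood test, with Benjamini-Hochberg adjustment over 14067 genes. In the mean of the 6 settings, 24 of the 36 genes rose and 3 fell. Over all genes, 62.6% were called (33.5% higher and 29.1% lower), and 75% of the 36 were called, most of them higher. The median log2 fold change was 0.47 over the 36 genes and 0.02 over all genes, and 30 of the 36 had a positive value. The smallest adjusted p-values belonged to Col14a1 (log2 fold change 0.88 ± 0.08 SE, adjusted p = 2.62e-11), Col6a3 (1.1 ± 0.12, adjusted p = 2.02e-09), Col3a1 (1.62 ± 0.19, adjusted p = 3.69e-09), Sparc (0.66 ± 0.08, adjusted p = 5.5e-09) and Col1a1 (2.07 ± 0.26, adjusted p = 1.52e-08). The genes that fell were Mmp14 (-0.53 ± 0.07, adjusted p = 1.55e-08), Dcn (-0.28 ± 0.06, adjusted p = 0.000174) and Pdgfra (-0.22 ± 0.09, adjusted p = 0.0283).

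**Figure D2:**
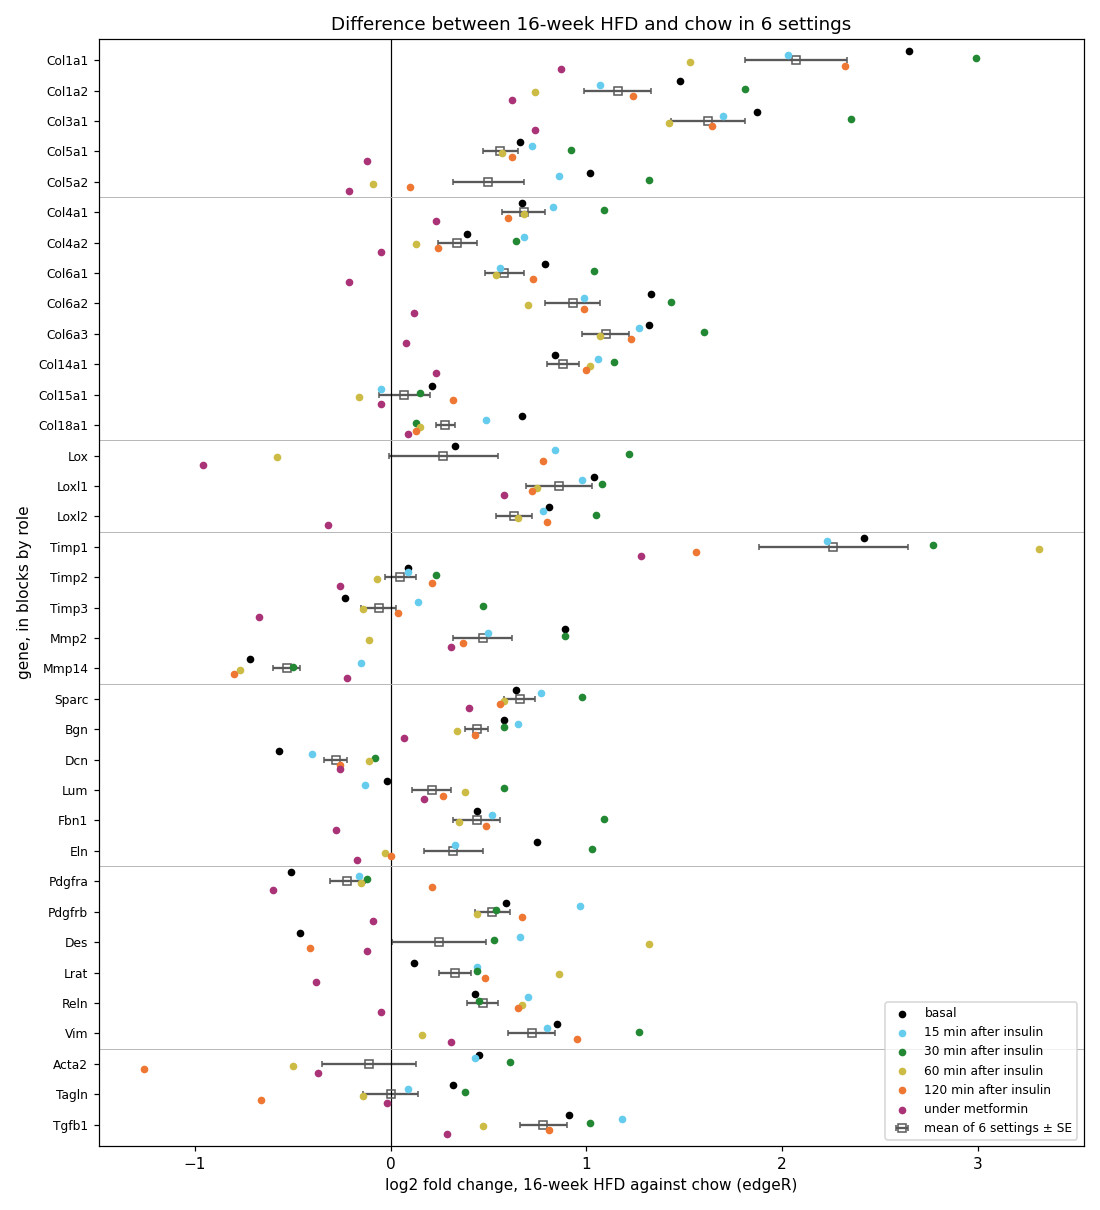
Log2 fold change of 16-week HFD against chow for each gene, as 1 dot for each of the 6 settings, with a square and bar for the mean of the 6 settings and its SE. Most collagens lie right of 0 with the setting under metformin nearest to 0, and Mmp14 and Dcn lie left of 0.

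The number of the 36 genes called was counted in each setting. At baseline 17 rose and 2 fell (32.3% of all genes were called, 16% higher and 16.3% lower). At 15 min after insulin 15 rose and 0 fell (24.4% of all genes, 12.3% higher). At 30 min, the group with 6 libraries, 25 rose and 1 fell (37.3%, 20.1% higher). At 60 min 8 rose and 1 fell (22.4%, 10.9% higher), and at 120 min 15 rose and 1 fell (28.2%, 14.5% higher). Under metformin 0 rose and 1 fell (20.4%, 11.2% higher and 9.25% lower). The median log2 fold change of the 36 genes was 0.65, 0.69, 0.95, 0.41 and 0.53 in the settings from baseline to 120 min and -0.05 under metformin. Counted over settings, 26 genes rose in at least 1 setting (36.2% of all genes did), 16 in at least 3 (12.9%), 12 in at least 4 (7.99%) and 5 in at least 5 (5.01%), namely Col3a1, Col6a3, Col14a1, Loxl2 and Sparc. None of the 36 rose in all 6, as 2.18% of all genes did. Single libraries moved these counts: at baseline 5 genes were called without 16-week HFD replicate 3 and 12 without chow replicate 2, at 15 min 9 without 16-week HFD replicate 1, at 60 min 4 without 16-week HFD replicate 2, and at 120 min 7 without chow replicate 2 or without 16-week HFD replicate 2. At 30 min 25 were called with replicates 1 to 3 of 16-week HFD alone and 15 with replicates 4 to 6 alone. With only the groups compared in each fit the counts were 12 at baseline, 23 at 15 min, 17 at 30 min, 14 at 60 min and 18 at 120 min, so that the order of the settings depended on the fit.

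Fibrillar collagens form the tensile fibres of scar and portal tracts, and all 5 measured rose in the mean of the 6 settings, with a median log2 fold change of 1.16. Col1a1, the alpha 1 chain of type I collagen, was at 3.42, 1.6 and 1.91 CPM in the basal chow libraries and at 4.43, 8.51 and 32.7 CPM in the basal 16-week HFD libraries. At 30 min after insulin its values were 4.83, 2.35 and 2.5 CPM on chow and 69.4, 31.2, 19.2, 19.5, 6.94 and 8.44 CPM on 16-week HFD. Every 16-week HFD library exceeded every chow library within these settings, but the 16-week values spread over a far wider range than the chow values. Such separation was common among all genes, here and for the genes below. At baseline and the 4 insulin times, 16.5% to 24% of all genes were higher without overlap and 15.6% to 24.7% were lower. Over all 18 chow libraries Col1a1 ran from 1.6 through a median of 2.41 to 4.83 CPM, and over all 21 libraries of 16-week HFD from 3.19 through 9.19 to 69.4 CPM. At baseline Col1a1 rose by a log2 fold change of 2.65 ± 0.63 (edgeR, adjusted p = 0.00143), and at 120 min by 2.32 ± 0.65 (adjusted p = 0.00722). Without 16-week HFD replicate 3, the library at 32.7 CPM, Col1a1 at baseline was at 1.43 (adjusted p = 0.0816) and was not called. Col3a1, the type III chain laid down early in fibrosis, was at 14.8, 11.2 and 9.71 CPM in basal chow libraries and at 16.4, 27.2 and 88.1 CPM in basal 16-week HFD libraries. The groups did not overlap, although the lowest 16-week library lay close to the highest chow library. Col3a1 rose by 1.87 ± 0.47 at baseline (adjusted p = 0.00218), by 2.35 ± 0.44 at 30 min (adjusted p = 0.000107) and by 1.64 ± 0.47 at 120 min (adjusted p = 0.00924). Without the same basal replicate 3 it was at 0.86 (adjusted p = 0.146) at baseline.

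Col1a2, the partner chain of Col1a1 in type I collagen, was at 10.5, 7.8 and 7.17 CPM in basal chow libraries and at 8.9, 16.4 and 46.5 CPM in basal 16-week HFD libraries. The first of those 16-week libraries lay within the chow range. Over the diets Col1a2 ran from 5.65 through 8.04 to 13.3 CPM on chow and from 8.6 through 18.4 to 77.2 CPM on 16-week HFD, and it rose by 1.16 ± 0.17 in the mean of the 6 settings (adjusted p = 4.71e-07). Col5a1 and Col5a2 encode type V collagen, which regulates fibril diameter. Col5a1 rose in 4 settings and by 0.56 ± 0.09 in the mean (adjusted p = 3.54e-06), and Col5a2 in 1 setting and by 0.5 ± 0.18 in the mean (adjusted p = 0.0187). With the libraries under metformin set aside, 17 of the 18 remaining 16-week HFD libraries exceeded the highest of the 15 chow libraries for Col1a1 and for Col5a1, 16 did for Col1a2 and Col3a1, and 2 did for Col5a2.

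Among the 8 network and other collagens, 7 rose in the mean of the 6 settings, and Col15a1, a basement membrane zone collagen, was at 0.07 ± 0.13 (adjusted p = 0.658). Col14a1, a collagen that associates with fibril surfaces, had the smallest adjusted p of the 36 genes in each of the 4 insulin settings. It was at 35, 35.6 and 38.5 CPM in basal chow libraries and at 36.4, 68.7 and 89.9 CPM in basal 16-week HFD libraries. At 30 min it was at 36.3, 40.6 and 43.8 CPM on chow and between 62.5 and 104 CPM in the 6 libraries of 16-week HFD. The groups overlapped at baseline and were apart at 30 min. Its log2 fold change was 0.84 ± 0.2 at baseline (adjusted p = 0.00174), 1.06 ± 0.2 at 15 min (adjusted p = 0.000322), 1.14 ± 0.18 at 30 min (adjusted p = 1.58e-05), 1.02 ± 0.21 at 60 min (adjusted p = 0.000458) and 1 ± 0.21 at 120 min (adjusted p = 0.00053). Under metformin Col14a1 was at 0.23 ± 0.2 (adjusted p = 0.444).

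Col6a3, a chain of the microfibrillar type VI collagen, was at 7.34, 5.82 and 5.2 CPM in basal chow libraries and at 8.25, 14.3 and 23.9 CPM in basal 16-week HFD libraries. Without the metformin libraries, all 18 libraries of 16-week HFD exceeded the highest of the 15 chow libraries for Col6a3, as they did for Loxl2, and 2.46% of all genes did so. Col6a3 rose by 1.32 ± 0.31 at baseline (adjusted p = 0.00101), 1.27 ± 0.3 at 15 min (adjusted p = 0.0025), 1.6 ± 0.28 at 30 min (adjusted p = 4.21e-05), 1.07 ± 0.31 at 60 min (adjusted p = 0.0111) and 1.23 ± 0.31 at 120 min (adjusted p = 0.00347). Its partners Col6a1 and Col6a2, neighbours on chromosome 10, rose by 0.58 ± 0.1 and 0.93 ± 0.14 in the mean of the 6 settings (adjusted p = 8.44e-06 and 3.43e-07).

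Col4a1 was at 28.4, 28.7 and 31.5 CPM in basal chow libraries and at 28, 45.2 and 67.8 CPM in basal 16-week HFD libraries. Over the diets it ran from 19.9 through 30.6 to 32.3 CPM on chow and from 17.7 through 46.7 to 97 CPM on 16-week HFD. Col4a2 was at 24.2, 20.8 and 22.2 CPM in the basal chow libraries and at 18.2, 28.9 and 41.3 CPM in the basal 16-week HFD libraries. Over the diets Col4a2 ran from 13.4 through 21.7 to 27.4 CPM on chow and from 10.7 through 28.8 to 53.1 CPM on 16-week HFD. For both genes of this head-to-head pair the first basal 16-week library lay below all 3 basal chow values and the other 2 lay above them. In the mean of the 6 settings Col4a1 rose by 0.68 ± 0.11 (adjusted p = 2.99e-06) and Col4a2 by 0.34 ± 0.1 (adjusted p = 0.00443), each called in 2 single settings. Col18a1 was at 816, 652 and 642 CPM in basal chow libraries and at 1210, 1090 and 1070 CPM in basal 16-week HFD libraries, without overlap. It rose by 0.67 ± 0.14 at baseline, the smallest adjusted p of the 36 genes in that setting (0.000228), and unlike the fibrillar collagens its highest basal 16-week library was replicate 1.

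**Figure D3:**
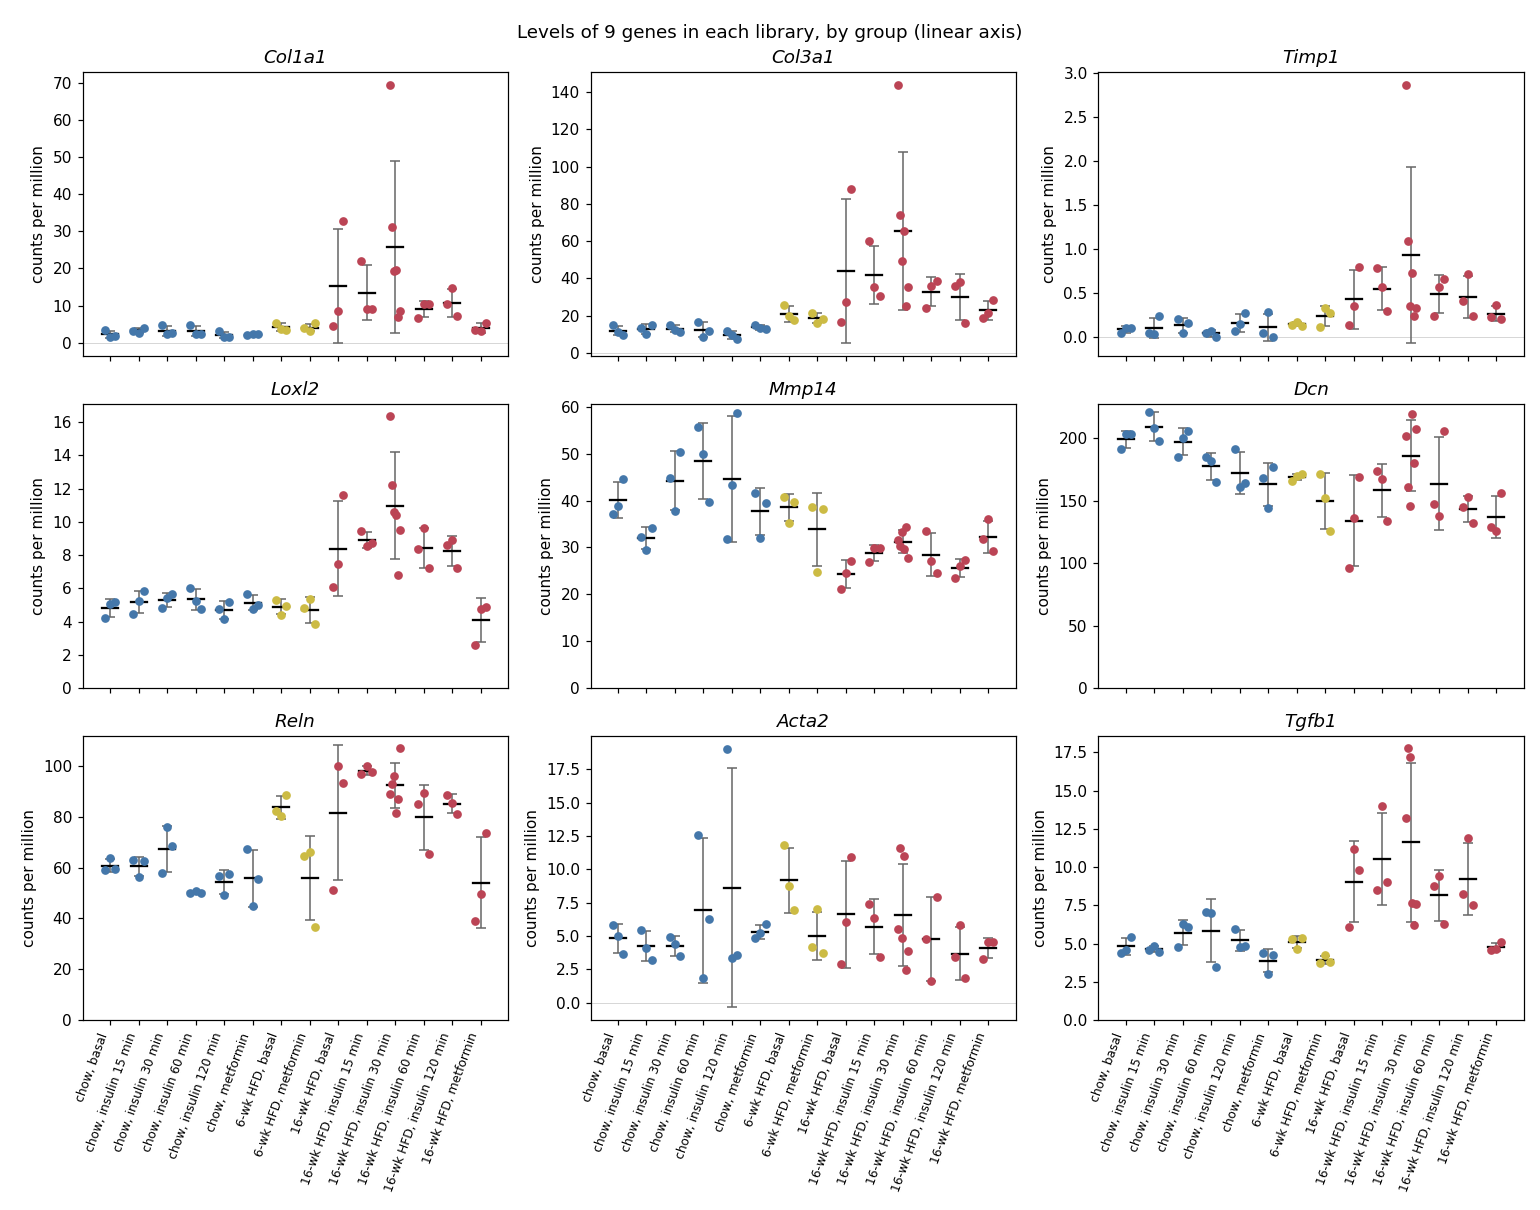
CPM of 9 of the genes in every library (dots), by group, with the group mean (bar) and SD (error bar) on linear axes, blue for chow, yellow for 6-week HFD and red for 16-week HFD. Col1a1, Col3a1 and Timp1 reach 69.4, 144 and 2.87 CPM in 16-week HFD libraries, Mmp14 lies lower there than on chow, and Acta2 overlaps between diets.

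Lysyl oxidases cross-link collagen and elastin. Loxl2 was at 4.19, 5.07 and 5.2 CPM in basal chow libraries and at 6.09, 7.46 and 11.6 CPM in basal 16-week HFD libraries, and the groups did not overlap there or in any other setting but metformin. It rose by 0.63 ± 0.09 in the mean of the 6 settings (adjusted p = 2.55e-07), by 1.05 ± 0.2 at 30 min (adjusted p = 0.000131) and by 0.8 ± 0.23 at 120 min (adjusted p = 0.00775). Loxl1 rose by 0.86 ± 0.17 in the mean (adjusted p = 3.09e-05). Lox, the founding member of the family, ran from 0.217 through 0.403 to 1.6 CPM on chow and from 0.155 through 0.627 to 1.9 CPM on 16-week HFD. These ranges overlapped almost fully, and Lox was at 0.27 ± 0.28 in the mean of the 6 settings (adjusted p = 0.401).

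The protease and inhibitor genes did not share a direction, with 2 that rose, 1 that fell and a median of 0.05. Timp1, an inhibitor of metalloproteinases that is induced in injured liver, was the least abundant of the 36 on chow. It was at 0.0451, 0.107 and 0.106 CPM in basal chow libraries and at 0.138, 0.35 and 0.794 CPM in basal 16-week HFD libraries. At 30 min after insulin it was at 0.201, 0.0412 and 0.16 CPM on chow and at 2.87, 1.09, 0.348, 0.723, 0.235 and 0.334 CPM on 16-week HFD. The groups did not overlap in either setting, but the gaps rested on few reads. At baseline the chow libraries had 2 reads each and the lowest 16-week HFD library had 3. At 30 min the highest chow library had 5 reads and the lowest 16-week HFD library had 6. Timp1 had 0 reads in 2 chow libraries, where 3 reads would be 0.159 CPM at 60 min and 0.139 CPM under metformin. Its summed reads were 30 on 16-week HFD and 6 on chow at baseline, a ratio after division by library size of 6.22 with an exact 95% interval of 2.55 to 18.3. The ratio was 5.22 (2.49 to 12.2) at 15 min, 8.12 (4.16 to 18.1) at 30 min, 12 (3.8 to 61.2) at 60 min, 3.44 (1.63 to 7.92) at 120 min and 2.39 (0.875 to 7.51) under metformin, intervals that cover counting error only. In the edgeR fit Timp1 rose by 2.26 ± 0.38 in the mean of the 6 settings (adjusted p = 4.14e-06) and by 3.31 ± 1.06 at 60 min (adjusted p = 0.0217).

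Mmp14, a membrane-bound metalloproteinase that cleaves fibrillar collagen and activates Mmp2, fell. It was at 37.2, 38.9 and 44.5 CPM in basal chow libraries and at 21.2, 24.6 and 27.2 CPM in basal 16-week HFD libraries, and the groups were clearly apart. Its log2 fold change was -0.72 ± 0.16 at baseline (adjusted p = 0.000909), -0.5 ± 0.14 at 30 min (adjusted p = 0.00489), -0.77 ± 0.16 at 60 min (adjusted p = 0.000874) and -0.8 ± 0.17 at 120 min (adjusted p = 0.000574). At 15 min, where chow libraries were at 32.3, 29.5 and 34.1 CPM and 16-week HFD libraries at 26.8, 29.9 and 29.8 CPM, the ranges overlapped and the gene was not called. Mmp2, its substrate, rose by 0.47 ± 0.15 in the mean of the 6 settings (adjusted p = 0.00619). Timp3, a matrix-bound inhibitor, ran from 25.9 through 35.4 to 60 CPM on chow and from 14.1 through 39 to 59.8 CPM on 16-week HFD. Its mean difference was -0.06 ± 0.09 (adjusted p = 0.535), and under metformin it fell by 0.67 ± 0.22 on the log2 scale (adjusted p = 0.0292), the 1 gene of the 36 called in that setting. In that setting 0 genes were called when any single chow library or 16-week HFD replicate 1 was left out. Timp2 was at 0.05 ± 0.08 in the mean (adjusted p = 0.61).

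Of the proteoglycan, matricellular and elastic fibre genes, 3 rose and 1 fell. Sparc, a collagen-binding matricellular protein, was at 33.4, 33.8 and 35.5 CPM in basal chow libraries and at 36.1, 52.5 and 71.6 CPM in basal 16-week HFD libraries. Over the diets it ran from 26.4 through 33.6 to 44.5 CPM on chow and from 33.9 through 53.6 to 106 CPM on 16-week HFD. It rose by 0.77 ± 0.19 at 15 min (adjusted p = 0.00374) and by 0.98 ± 0.17 at 30 min (adjusted p = 5.56e-05). Bgn rose by 0.65 ± 0.15 at 15 min (adjusted p = 0.0023), and 17 of the 18 libraries of 16-week HFD without metformin exceeded all 15 chow libraries. Dcn, which binds type I collagen and TGF-beta, was at 191, 203 and 203 CPM in basal chow libraries and at 96.4, 136 and 169 CPM in basal 16-week HFD libraries, without overlap. Of all genes, 24.7% were lower without overlap there. Dcn fell by 0.57 ± 0.15 on the log2 scale at baseline (adjusted p = 0.00451), the 1 setting of the 6 in which it was called. Over the alternative fits described below its baseline value ran from -0.78 to -0.32, and not every fit called it. Over all settings Dcn ran from 144 through 188 to 221 CPM on chow and from 96.4 through 153 to 219 CPM on 16-week HFD. Lum, its neighbour, ran from 5.73 through 7.52 to 9.9 CPM on chow and from 4.98 through 8.39 to 18.2 CPM on 16-week HFD and was at 0.21 in the mean of the 6 settings (adjusted p = 0.071). Fbn1, the microfibril protein fibrillin 1, rose by 0.44 ± 0.12 in the mean (adjusted p = 0.00157), and Eln, elastin, was at 0.32 ± 0.15 (adjusted p = 0.0556).

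The 6 stellate and mesenchymal cell genes split, with 4 that rose, 1 that fell and 1 not called. Lrat, which esterifies retinol for storage in quiescent stellate cells, ran from 10.2 through 14.2 to 17.4 CPM on chow and from 8.09 through 18 to 25 CPM on 16-week HFD. It rose by 0.33 ± 0.08 in the mean of the 6 settings (adjusted p = 0.000398) and by 0.86 ± 0.19 at 60 min (adjusted p = 0.00149). Reln, a secreted glycoprotein made by stellate cells, was at 58.9, 63.8 and 59.5 CPM in basal chow libraries and at 51.3, 100 and 93.3 CPM in basal 16-week HFD libraries. The first of these lay below all chow values and the others lay far above. Reln rose by 0.47 ± 0.08 in the mean (adjusted p = 3.03e-06) and by 0.67 ± 0.2 at 60 min (adjusted p = 0.0131).

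The PDGF receptors differed in direction. Pdgfrb, the receptor through which PDGF-B acts on stellate cells, ran from 5.29 through 6.55 to 9.06 CPM on chow and from 5.26 through 9.68 to 18.8 CPM on 16-week HFD, and it rose by 0.97 ± 0.23 at 15 min (adjusted p = 0.00207) and by 0.52 ± 0.09 in the mean of the 6 settings (adjusted p = 8.3e-06). Pdgfra ran from 7.07 through 10.5 to 12.5 CPM on chow and from 3.06 through 9.37 to 13.6 CPM on 16-week HFD, ranges that overlapped, with the small fall given above in the mean only. Vim, the mesenchymal intermediate filament, ran from 13.1 through 16.1 to 27.6 CPM on chow and from 13.5 through 25.1 to 61.5 CPM on 16-week HFD and rose by 0.72 ± 0.12 (adjusted p = 5.37e-06). Des, a muscle-type intermediate filament also present in rodent stellate cells, was at 0.25 ± 0.24 (adjusted p = 0.357). At baseline it was at -0.46 ± 0.57 (adjusted p = 0.569), and without the 5 libraries rich in muscle markers, which include chow replicate 1, at 0.98 (adjusted p = 0.029).

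Acta2, the smooth muscle actin of myofibroblasts, was at 5.79, 5.02 and 3.61 CPM in basal chow libraries and at 2.86, 6.06 and 10.9 CPM in basal 16-week HFD libraries. Over the diets it ran from 1.82 through 4.89 to 19 CPM on chow and from 1.61 through 4.73 to 11.6 CPM on 16-week HFD. These ranges overlapped almost fully, and the mean difference was -0.11 ± 0.24 (adjusted p = 0.725). Tagln, another smooth muscle gene, was at 0 ± 0.14 (adjusted p = 0.983). Neither passed the test in any of the 6 settings. Tgfb1, the ligand that drives collagen synthesis in stellate cells, was at 4.42, 4.59 and 5.47 CPM in basal chow libraries and at 6.09, 11.2 and 9.83 CPM in basal 16-week HFD libraries, without overlap. It ran from 3.05 through 4.79 to 7.06 CPM over all chow libraries and from 4.57 through 8.53 to 17.8 CPM over all 16-week HFD libraries, and it rose in 4 settings and by 0.78 ± 0.12 in the mean of the 6 (adjusted p = 1.02e-06). At 30 min Tgfb1 was at 13.2, 17.8 and 17.2 CPM in replicates 1 to 3 of 16-week HFD and at 7.65, 6.2 and 7.61 CPM in replicates 4 to 6, and with the latter 3 alone its difference from chow was 0.32 (adjusted p = 0.315).

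Libraries of the 16-week diet differed among themselves within groups in these genes more than chow libraries. Without metformin libraries, the median SD of log2 CPM within a group was 0.25 on chow and 0.42 on 16-week HFD over the 36 genes, against 0.18 and 0.2 over all genes. For the fibrillar collagens it was 0.35 and 0.75. The SD was wider on 16-week HFD for 29 of the 36 genes (80.6%) and for 61.4% of all genes. The 16-week SD includes the group at 30 min, whose libraries fell into 2 sets. The part of that split in the wider spread was not tested. The genes tended to be high or low together in a library. In the basal 16-week HFD group, replicate 1 had the lowest of the 3 values for 34 of the 36 genes and replicate 3 the highest for 31. The median difference of the 36 genes from chow was -0.01, 0.58 and 1.18 (log2) in these 3 libraries. At 30 min after insulin, 16-week HFD replicate 1 had the highest value of all 45 libraries for 24 of the 36 genes. The summed stellate cell markers were 284, 442 and 470 CPM in the basal 16-week HFD libraries against 429 to 434 CPM on basal chow. Dcn, 1 of the 36, made up 96.4, 136 and 169 CPM of the former sums and 191, 203 and 203 CPM of the latter. The sum is therefore no separate measure of stellate cells, and the part of their number in the spread was not tested.

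**Figure D4:**
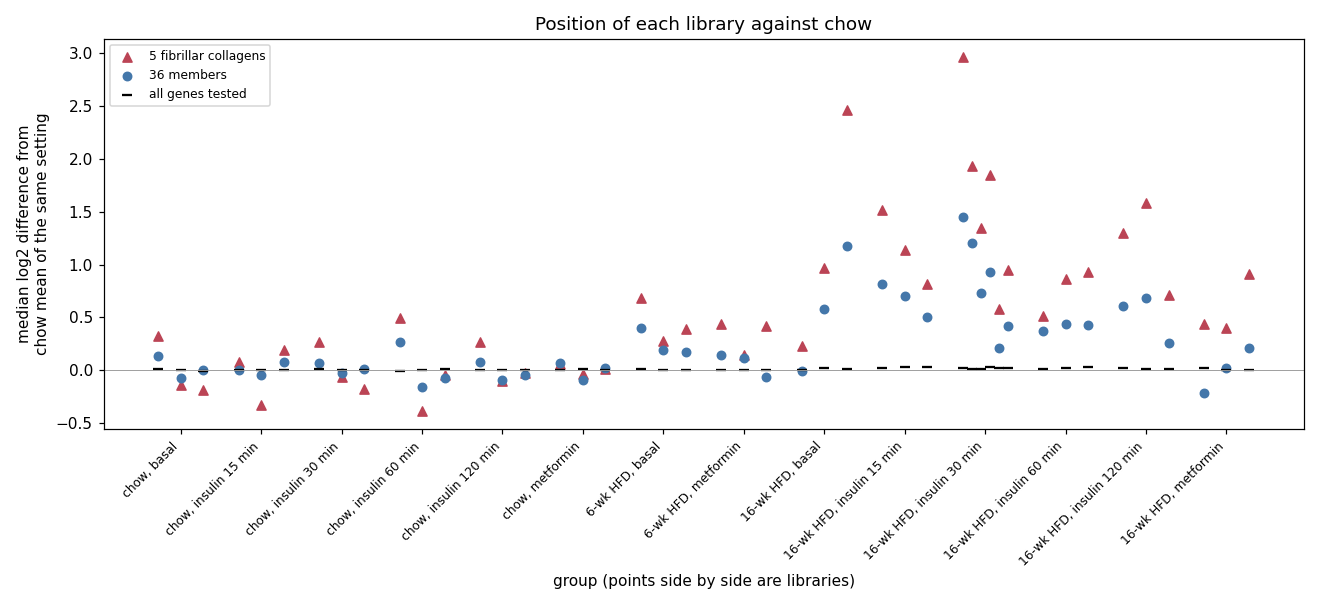
Median log2 difference of each library from the chow mean of the same setting, for the 5 fibrillar collagens (red triangles), the 36 genes (blue dots) and all genes (black bars). All genes stay near 0 in every library, whereas the fibrillar collagens reach 2.97 in 16-week HFD replicate 1 at 30 min and 2.46 in basal replicate 3.

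Other genes of the same pathways were counted in the mean of the 6 settings, where 62.6% of all genes were called. Of 19 tested genes of collagen processing, 16 rose and 2 fell, with the smallest adjusted p-values for Serpinh1, the collagen chaperone HSP47 (1.73 ± 0.13, adjusted p = 1.43e-13), and Plod1, a lysyl hydroxylase (0.38 ± 0.04, adjusted p = 9.08e-10). In the TGF-beta pathway 9 of 27 rose and 7 fell, led by Itgb1 (-0.34 ± 0.03, adjusted p = 2.71e-11) and Tgfbi (0.57 ± 0.05, adjusted p = 5.45e-11). Of 31 other matrix genes 21 rose and 2 fell, and of 19 basement membrane genes 8 rose and 6 fell. Among 18 other proteases and cross-linkers 8 rose and 3 fell, including Mmp12, the macrophage elastase, which rose by 3.49 ± 0.35 (adjusted p = 1.64e-10). Of the 4 PDGF ligands, Pdgfb rose by 0.7 ± 0.14 (adjusted p = 7.65e-05) and Pdgfa fell by 0.35 ± 0.1 on the log2 scale (adjusted p = 0.00323).

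Markers of other cells were counted in the same mean of the 6 settings, where 33.5% of all genes rose and 29.1% fell. Of 10 liver endothelium markers 9 rose, and their summed level ran from 202 through 289 to 366 CPM on chow and from 195 through 432 to 514 CPM on 16-week HFD. Macrophage markers rose for 7 of 10, with sums of 163, 268 and 688 CPM (lowest, median and highest) on chow and 254, 453 and 1210 CPM on 16-week HFD. Leukocyte markers rose for 3 of 4. Adipocyte markers rose for 2 of 4, portal fibroblast markers for 3 of 7 and smooth muscle markers for 2 of 5, which is near the share of all genes for lists this short, and 0 of 6 mesothelium markers were called. The summed level of 5 adipocyte markers was nevertheless higher. It ran from 0.372 through 1.55 to 18.3 CPM on chow and from 3.93 through 17.2 to 56.5 CPM on 16-week HFD. Of 22 stellate cell markers 12 rose and 3 fell. These counts include genes of the 36 already given, Lrat, Reln and Pdgfrb among the higher and Dcn and Pdgfra among the lower. Of 5 hepatocyte markers 1 rose and 3 fell. Cholangiocyte markers had 1 higher and 1 lower of 6, and the 10 skeletal muscle and 10 pancreas markers had 0 called. Pancreas transcripts were present all the same, with sums from 8.18 through 288 to 2580 CPM on chow. On 16-week HFD their sums ran from 7.23 through 27.7 to 17600 CPM. The highest were 17600 CPM in replicate 3 at 15 min and 7050 CPM in replicate 2 at 30 min. The part of these cell types in the differences of the 36 genes was not tested.

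After 6 weeks of HFD few of these genes were called against chow in the fit of all libraries, and the count depended on the fit. At baseline 2 of the 36 rose and 0 fell (11% of all genes were called), and the median log2 fold change was 0.24. Col18a1 was at 965, 980 and 1000 CPM against 816, 652 and 642 CPM on chow, without overlap, and rose by 0.48 ± 0.13 (adjusted p = 0.0164). Of all genes, 18.1% were higher without overlap in this comparison. Des was at 64.9, 22.6 and 5.81 CPM against 18.8, 3.74 and 2.6 CPM on chow and rose by 1.84 ± 0.56 (adjusted p = 0.0291), but the groups overlapped. Des is also a skeletal muscle gene, and the summed muscle markers were 1600 and 221 CPM in the first and second of these 6-week libraries and 174 CPM in chow replicate 1. Leaving out the 5 libraries over 100 CPM of muscle markers kept only replicate 3 of basal 6-week HFD, too few for a count of calls. Without chow replicate 2 or without chow replicate 3, 0 of the 36 were called. With only the basal 6-week HFD and chow libraries in the fit 9 were called (15.9% of all genes tested). Of these, 6 rose, namely Col18a1, Col3a1, Col6a3, Col14a1, Reln and Acta2, and 3 fell, namely Timp3 (-0.63, adjusted p = 0.00496), Pdgfra (-0.48, adjusted p = 0.00937) and Dcn (-0.22, adjusted p = 0.0306). Col3a1 was at 25.4, 19.7 and 17.4 CPM, above all 3 basal chow libraries, with 0.8 ± 0.46 (adjusted p = 0.286, and 0.0279 in the fit of these groups alone), and Col1a1 at 5.44, 3.82 and 3.37 CPM with 0.81 ± 0.63 (adjusted p = 0.463). Under metformin 0 of the 36 were called on 6-week HFD against chow (4.43% of all genes), with 1 at an unadjusted p under 0.05 and 0 called by DESeq2, and the fit of these groups alone called Timp3 (-0.55, adjusted p = 0.0349).

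The diets of 16 and 6 weeks were also compared directly, which shares the HFD libraries of the comparisons above. In the mean of basal and metformin 1 gene rose and 2 fell (10.4% of all genes were called). Sparc rose by 0.5 ± 0.14 (adjusted p = 0.0184), Mmp14 fell by 0.37 ± 0.12 on the log2 scale (adjusted p = 0.0368) and Des fell by 1.43 ± 0.41 (adjusted p = 0.0244). Leaving out 6-week HFD basal replicate 1, 6-week HFD metformin replicate 1, 16-week HFD basal replicate 2 or 16-week HFD metformin replicate 1 left 1 gene called. The 6-week basal libraries with 1600 and 221 CPM of summed muscle markers enter this comparison too. Without the 5 libraries over 100 CPM of muscle markers, which leaves replicate 3 as the only basal 6-week library, Des was at -0.12. With only the groups compared in the fit 0 of the 36 were called. At baseline alone 3 rose and 2 fell (10.2%). Those that rose were Loxl2 (0.78 ± 0.22, adjusted p = 0.0201), Sparc (0.68 ± 0.19, adjusted p = 0.0209) and Col1a1 (1.85 ± 0.59, adjusted p = 0.0397), and those that fell were Mmp14 (-0.67 ± 0.16, adjusted p = 0.00898) and Des (-2.3 ± 0.58, adjusted p = 0.0103). Under metformin 0 were called (0.0213% of all genes), with 1 at an unadjusted p under 0.05.

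Metformin was compared with the basal group on each diet, and on 16-week HFD many collagens were lower with it. On this diet 0 of the 36 genes rose and 20 fell (28.4% of all genes were called, 16.9% higher and 11.5% lower), with a median log2 fold change of -0.71 against -0.01 over all genes. All 8 network and other collagens fell, as did 3 of 5 fibrillar collagens. The smallest adjusted p-values belonged to Loxl2 (-1.03 ± 0.23, adjusted p = 0.00118), Timp3 (-0.95 ± 0.22, adjusted p = 0.00187), Col6a3 (-1.3 ± 0.31, adjusted p = 0.00208), Bgn (-0.62 ± 0.15, adjusted p = 0.00285) and Lrat (-0.78 ± 0.19, adjusted p = 0.00308). Loxl2 was at 2.6, 4.79 and 4.91 CPM with metformin and at 6.09, 7.46 and 11.6 CPM without. Timp3 was at 14.1, 16.9 and 18.8 CPM with metformin and at 18.9, 39 and 38.4 CPM without. For both genes the groups did not overlap, although the lowest basal Timp3 library lay close to the highest metformin library. Col1a1 was at 3.35, 3.19 and 5.41 CPM with metformin and at 4.43, 8.51 and 32.7 CPM without, groups that overlapped, and fell by 1.93 ± 0.62 (adjusted p = 0.018).

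Of the 20 genes that fell, 5 had groups that did not overlap, namely Loxl2, Timp3, Col15a1, Col18a1 and Tgfb1. Called or not, 6 of the 36 genes (16.7%, these 5 and Des) were lower without overlap, as were 14.1% of all genes, so that the share of the 36 was near that of all genes. Tgfb1 was at 4.57, 4.69 and 5.11 CPM with metformin and at 6.09, 11.2 and 9.83 CPM without, and fell by 0.92 ± 0.3 (adjusted p = 0.0217). Mmp14 was at 31.7, 36 and 29.2 CPM with metformin and at 21.2, 24.6 and 27.2 CPM without, all higher, with 0.41 ± 0.17 (adjusted p = 0.0611). Dcn, Lum and Col3a1 were at 0.03, -0.02 and -0.95 (adjusted p = 0.907, 0.969 and 0.117), and Acta2 was at -0.69 ± 0.62 (adjusted p = 0.432). The chow libraries under metformin held Loxl2 at 5.68, 4.78 and 4.98 CPM and Tgfb1 at 4.43, 3.05 and 4.24 CPM, so that under metformin the 16-week HFD libraries lay within or below the chow range for Loxl2 and above it for Tgfb1.

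The count on 16-week HFD rested on single libraries and on the model. Without basal replicate 3, the library with the highest values of 31 of the 36 genes in its group, 4 genes were called, and without metformin replicate 1, 6 were called. With only the basal and metformin libraries of this diet in the fit 0 of the 36 were called, as were 0.109% of all genes tested. Metformin libraries on this diet held relatively fewer reads of long genes: the correlation across genes between exon length and a library's deviation from the mean of all libraries (Spearman) was -0.61, -0.27 and -0.34 with metformin on 16-week HFD and -0.22, 0.07 and 0.15 without. With per-library trends in length and GC content removed, 8 of the 36 fell and 1 rose (Mmp14, 0.45, adjusted p = 0.0491). The median of the 18 genes with exons longer than 4328.5 bases then went from -0.82 to -0.48 and that of the 18 others from -0.61 to -0.54. Loxl2, Timp3, Col6a3, Bgn, Lrat, Timp2, Sparc and Tgfb1 were the genes that still fell, and Col18a1 was at 0.07 (adjusted p = 0.746). Summed endothelium markers were at 195 to 269 CPM with metformin and 273 to 479 CPM without, with 7 of 10 lower. Hepatocyte markers were at 108000 to 126000 CPM with metformin and 76600 to 96600 CPM without, with 3 of 5 higher, and stellate cell markers were at 312 to 408 CPM with it and 284 to 470 CPM without. The part of cell composition in the 20 calls was not tested.

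**Figure D5:**
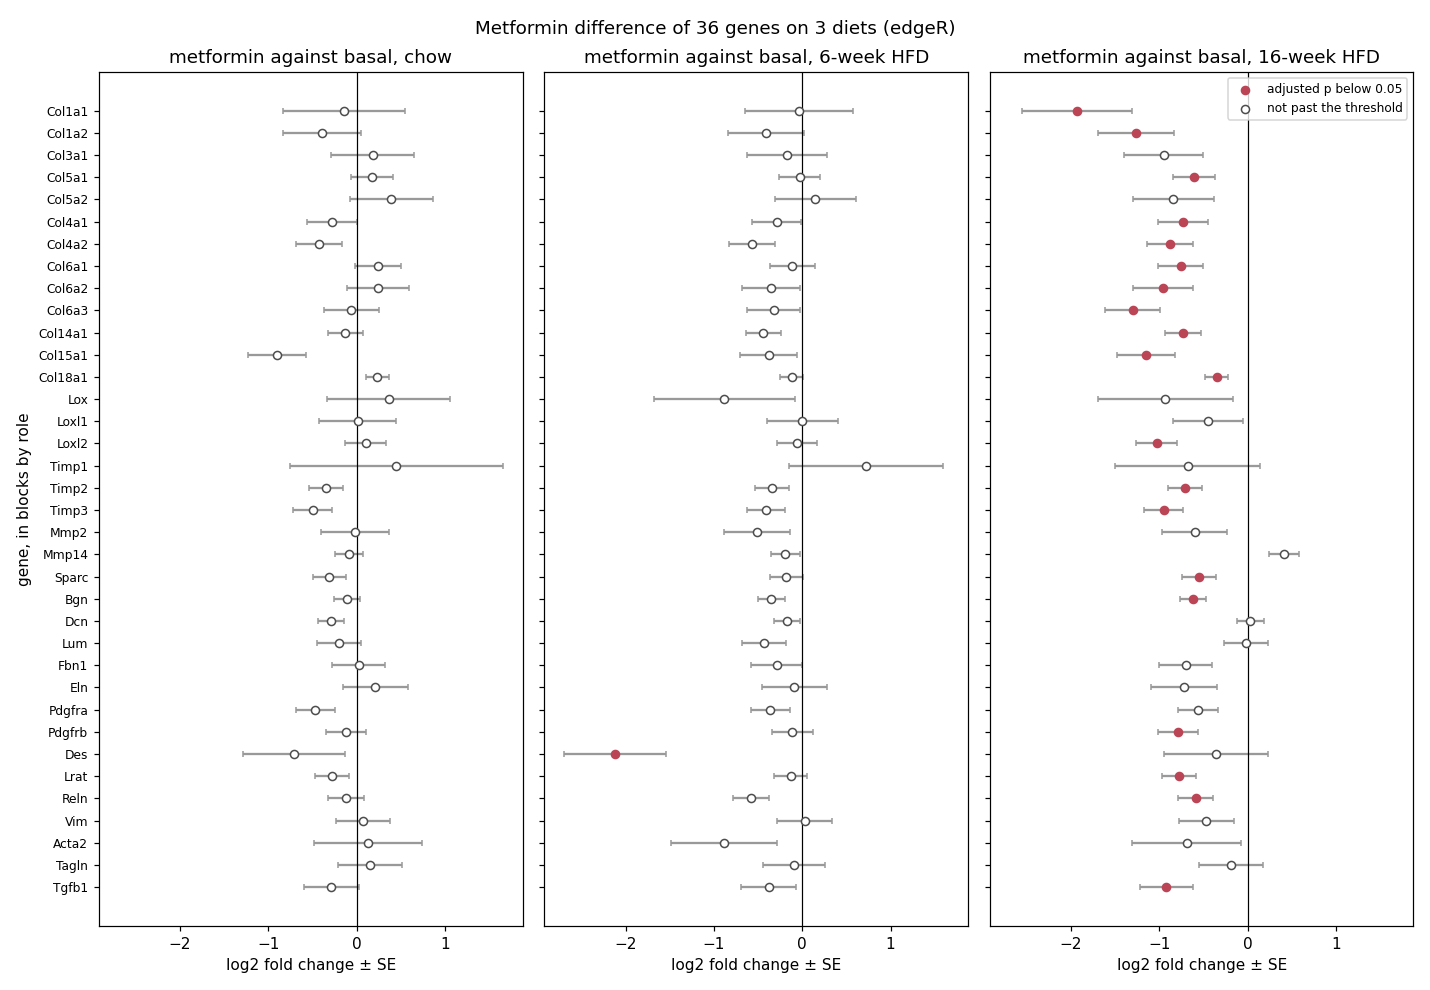
Log2 fold change of metformin against basal with its SE for each gene on chow, 6-week HFD and 16-week HFD, with filled red symbols where the adjusted p was under 0.05. The red symbols are 20 genes on 16-week HFD, all left of 0, and Des on 6-week HFD.

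On chow 0 of the 36 genes were called with metformin (1.94% of all genes were), with 3 at an unadjusted p under 0.05, 0 by DESeq2 and a median of -0.1. On 6-week HFD 0 rose and 1 fell (3.17%), and the median was -0.29. That gene was Des, at 9.07, 6 and 6.48 CPM with metformin and 64.9, 22.6 and 5.81 CPM without, which fell by 2.12 ± 0.58 (adjusted p = 0.0351). With replicate number as a block it was not called (adjusted p = 0.0509). The count was also 0 without basal replicate 1 or any 1 of the metformin libraries. Without the 5 libraries over 100 CPM of muscle markers, which leaves replicate 3 as the only basal library, Des was at 0.09. Whether the metformin response differed between diets was tested as an interaction over all diets, and 0 of the 36 were called (1.16% of all genes), with 5 at an unadjusted p under 0.05. DESeq2 called 1, Loxl2 (adjusted p = 0.0297). In the edgeR contrast of 16-week HFD against chow alone, the metformin response of Loxl2 differed by -1.13 ± 0.32 (adjusted p = 0.0393, where 4.96% of all genes were called). The joint edgeR test thus showed no difference between diets in the metformin response for any of the 36. For Loxl2 the call depended on the fit, and the joint test with length and GC trends removed did not call it.

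Other pathway genes were counted with metformin on 16-week HFD beside the 11.5% of all genes that fell and the 16.9% that rose there. No difference between a list and all genes was tested. Of collagen processing genes 5 of 19 fell and 0 rose, led by Adamts3 (-1.66 ± 0.41) and Leprel2 (-0.73 ± 0.18). In the TGF-beta pathway 7 of 27 fell and 0 rose, with Ltbp4 at -1.07 and the receptor Tgfbr2 at -0.88. Of basement membrane genes 8 of 19 fell and 0 rose, with the perlecan gene Hspg2 at -1.32 and Lama3 at -1.06. Pdgfb, the ligand of Pdgfrb, fell by 1.58 ± 0.37 (adjusted p = 0.00207). Among other matrix genes 5 of 31 fell and 2 rose, with Prelp at -0.73 and Spon2 at 1.48, and among other proteases and cross-linkers 1 of 18 fell, Mmp15 at -0.7, and 0 rose.

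Within a diet, none of these genes was called in the joint edgeR test of the 4 insulin times against baseline. On chow 0 of the 36 were called over the 4 times (4.83% of all genes were), with 3 at an unadjusted p under 0.05 and 0 by DESeq2. On 16-week HFD 0 were called (2.34%), with 13 at an unadjusted p under 0.05 and 1 by DESeq2 (Fbn1, adjusted p = 0.0289). The test of a difference between the diets called 0 (0.263%), with 2 at an unadjusted p under 0.05 and 0 by DESeq2. In tests of single times against baseline, where 0 to 5.08% of all genes were called, Dcn was the 1 gene of the 36 called, at 30 min on 16-week HFD, where it was at 202, 161, 146, 219, 180 and 207 CPM against 96.4, 136 and 169 CPM at baseline, groups that overlapped, with 0.48 ± 0.14 (adjusted p = 0.0457, 3.55% of all genes called). The 16-week count depended on libraries that stood apart: it was 9 without basal replicate 3, 13 when only replicates 1 to 3 of the 6 libraries at 30 min were kept and 0 when only replicates 4 to 6 were kept. With those 3 libraries the called genes included Col1a1 (adjusted p = 0.014), Col5a1 (adjusted p = 0.014) and Sparc (adjusted p = 0.0176), whose values at 30 min were highest in replicate 1.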

How the data were processed

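Raw read counts per gene, deposited by the authors, were used for every result. Per the labels' protocols, TruSeq version 1 libraries of polyadenylated RNA were sequenced as paired reads of 40 to 50 bases. TopHat 1.4.0, HTSeq, DESeq2 1.0.18 and mm9 are named in the submitters' processing notes. The deposited signal values, read counts that the authors normalized with CQN and DESeq2 within a diet, served 1 alternative for insulin (log2 after adding 1, limma 3.58.1). Groups came from the sample titles. The 36 genes and all lists were chosen with earlier results of these data known.

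A filter on low counts (filterByExpr, minimum count 10) kept 14067 of 23227 genes. All 45 libraries were scaled by TMM and fitted together in edgeR 4.0.16 (R 4.3.3) with 1 coefficient per group. P-values of the quasi-likelihood test received a Benjamini-Hochberg adjustment over the genes of a comparison, with calls under 0.05. The SE is the log2 fold change over the root of the F statistic, and log2 CPM had a prior count of 2. Depth of 18193181 to 50253493 reads set the precision of low genes such as Timp1, and counting intervals take PCR copies as independent molecules. In every comparison up to 5 called genes with the smallest adjusted p in each direction were named, and of other lists up to 2. No 2 libraries held identical counts.

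Alternatives were RLE scaling, no filter, only the groups compared, DESeq2 1.42.0, removal of per-library trends in exon length and GC content (splines with 5 degrees of freedom), each library left out, and the replicate number as a block. Numbers come from the titles, which do not say that they mark a shared animal or batch. The deviations of same-numbered libraries correlated at 0.41, 0.16 and 0.3 between basal and metformin groups on 6-week HFD and at 0.24, 0.15 and 0.12 on 16-week HFD, so the pairing check passed there. It passed in 4 of 59 pairs of groups. In simulated counts for the basal comparison of 16-week HFD with chow over 13894 genes, 42% of changes of 1.5-fold and 82% of changes of 2-fold were recovered, with 6.8% false among calls. The simulation gave all groups the same dispersion per gene and changed no gene of very low mean level. Its rates therefore do not carry over to genes with a wider spread on 16-week HFD, or to Timp1 and Lox.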

Additional observations from a re-analysis of the deposited data

Results flagged for a closer look

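At 30 min after insulin on 16-week HFD, the only group of 6 libraries, replicate 1 stood apart from the other 5 for 5 of the 36 genes tested. Its gap to the nearest library exceeded the 95% limit for a single outlying value, which chance passes in about 1 in 20 groups. Over all genes in this group 5.36% had a library beyond the limit, and 1.14% had replicate 1 beyond it on the high side. For the 36 genes the latter was 13.9%. These libraries also differ as 2 sets, replicates 1 to 3 and replicates 4 to 6, and the part of that split was not tested. Col1a2 was at 77.2 CPM in this library and at 14.7 to 37.5 CPM in the others. Col6a3 was at 38.7 CPM against 11.3 to 21.1 CPM, and Pdgfrb at 18.8 CPM against 8.47 to 12.1 CPM. Mmp2, which encodes a gelatinase, was at 10.1 CPM against 2.97 to 5.18 CPM, and Timp1 at 2.87 CPM against 0.235 to 1.09 CPM. The same library also had the highest of all 45 values for 24 of the 36 genes.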

How the results depend on the processing

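All values are counts of the 36 genes called unless stated, and the cause of each shift was not tested. With RLE scaling or with no filter, each of the 17 counts stayed within 1.5 times its value. In the mean of the 6 settings, the count of 27 stayed within that range under every alternative run.

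With only the groups compared in the fit (fewer libraries to estimate the spread), 16-week HFD against chow had 12 called at baseline (19 with all libraries), 23 at 15 min (15), 17 at 30 min (26), 14 at 60 min (9) and 0 under metformin (1). In the same fit 6-week HFD against chow had 9 at baseline (2) and 1 under metformin (0), 16- against 6-week HFD had 0 (3), metformin had 2 on chow (0) and 0 on 16-week HFD (20), and insulin had 1 on chow (0). Removing length and GC trends left 0 called for 16-week HFD against chow under metformin, 9 for metformin on 16-week HFD and 1 for insulin on 16-week HFD. Adding the replicate block to that gave 0, 10 and 10, and 0 for metformin on 6-week HFD. The replicate block alone gave 0 for metformin on 6-week HFD, 9 for insulin on 16-week HFD and 1 for the diet difference in the metformin response, and it changed no other count by over 1.5 times, with 19 for metformin on 16-week HFD. The block gives no weight to replicates 4 to 6 at 30 min on 16-week HFD, since no other group has those numbers. DESeq2 called 2 under metformin for 16-week HFD against chow, 1 for insulin on 16-week HFD and 1 for the diet difference in the metformin response. For insulin on chow, limma on the deposited values called 2, and for insulin on 16-week HFD 13 were called with the first 3 libraries at 30 min.

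Further alternatives were chosen after seeing the data. With the last 3 libraries alone at 30 min on 16-week HFD, 15 were called against chow there, 28 in the mean of the 6 settings and 0 for insulin on 16-week HFD. Leaving out the first basal and first metformin library of 16-week HFD together gave 0 for 16-week HFD against chow under metformin, 5 for 6-week HFD at baseline, 6 for 16- against 6-week HFD and 2 for metformin on 6-week HFD. Leaving out the 5 libraries over 100 CPM of muscle markers kept only replicate 3 of basal 6-week HFD, too few for counts in those last 3. Without those 5, Des reversed to 0.98 (adjusted p = 0.029) for 16-week HFD against chow at baseline. It reversed to 0.09 for metformin on 6-week HFD. Col18a1 with metformin on 16-week HFD reversed to 0.07 with the trends removed (adjusted p = 0.746) and to 0.07 with the block added (adjusted p = 0.739).

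Leaving out 1 library at a time gave 5 to 24 called for 16-week HFD against chow at baseline, 9 to 16 at 15 min, 19 to 28 at 30 min, 4 to 8 at 60 min, 7 to 16 at 120 min, 0 to 3 under metformin and 27 to 29 in the mean. It gave 0 to 2 for 6-week HFD at baseline, 1 to 3 for 16- against 6-week HFD, 0 to 1 and 4 to 22 for metformin on 6- and 16-week HFD, 0 to 2 and 0 to 9 for insulin on chow and 16-week HFD, and 0 to 2 for the diet difference in the metformin response, and 0 throughout for the remaining comparisons. Over single genes and alternatives, 2809 values kept direction and side of the threshold, 150 gained a call, 364 lost one and 4 reversed. Low read numbers limit Timp1 and Lox most.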

Other observations

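Timp3 was singled out after its values were seen. In 6-week HFD against chow, 19.4% of all genes were lower without overlap at baseline and 13.8% under metformin. The share of all genes with all 6 of these libraries below all 18 of chow was not counted. All 6 libraries of 6-week HFD, at 15.4 to 25.7 CPM, lay below the lowest of the 18 chow libraries, at 25.9 CPM, although the edgeR fit of all libraries called the gene neither at baseline (-0.64 ± 0.22, adjusted p = 0.0508) nor under metformin (-0.55 ± 0.22, adjusted p = 0.161). Alternatives did call Timp3: at baseline the adjusted p was 0.00496 with only the groups compared, 0.0346 with DESeq2 and 0.0384 with length and GC trends removed, and under metformin it was 0.0349 with only the groups compared. On 16-week HFD without metformin its median was 39.6 CPM, within the chow range of 25.9 to 60 CPM, and the first basal library was the 1 of those 18 below it, at 18.9 CPM. Col3a1 also had a raised floor on 6-week HFD, with 16 to 25.4 CPM in the 6 libraries against 7.22 to 16.7 CPM on chow, and no call in the fit of all libraries (adjusted p = 0.286 at baseline and 0.67 under metformin), whereas with only the groups compared Col3a1 was called at baseline (0.81, adjusted p = 0.0279). These differences rest on 6 libraries, and their 3 basal and 3 metformin libraries were tested only apart.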
